A study of Mus musculus with 6 samples.

Results

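The gamma B protocadherins are 7 genes of the protocadherin gamma cluster, on the plus strand of mouse chromosome 18: Pcdhgb1, Pcdhgb2, Pcdhgb4, Pcdhgb5, Pcdhgb6, Pcdhgb7 and Pcdhgb8. They were taken by name. All 7 were found among the 27179 Entrez gene IDs of the count tables, under the IDs 93699 to 93705, and all 7 were abundant enough to enter the test over 14207 genes. RNA was sequenced from 3 neural stem cell libraries homozygous for MommeD1, a nonsense allele labelled as a null of Smchd1, and from 3 wild type libraries. Both groups were derived from E14.5 brains, with C57BL/6 x FVB/N given as the strain and male as the sex, and were grown on polyornithine and laminin in medium with bFGF and EGF (20 ng/ml of either). Nothing in the labels says whether the replicates came from separate embryos, so the p-values take in the spread between cultures or libraries, which may be technical only.

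Clustered protocadherins are cadherin-like adhesion proteins of neurons. Each gamma gene has its own promoter and its own large first exon, which encodes the extracellular domains, the membrane-spanning part and some of the cytoplasmic part, and this exon is spliced to constant exons that the whole gamma cluster shares. The proteins bind the same isoform on the opposite cell, and different combinations of isoforms let a neuron tell its own branches from those of other cells. Promoter choice is known to depend on DNA methylation and on loops made by CTCF and cohesin. SMCHD1 is a chromatin protein of the SMC family that helps to silence the inactive X chromosome and some autosomal gene clusters, clustered protocadherins among them. The comparison addressed which genes change when Smchd1 is lost.

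In the GENCODE M21 models (GRCm38, the assembly of mm10) the first exon of Pcdhgb1 spans 37680233 to 37682839, that of Pcdhgb2 37689828 to 37692369 and that of Pcdhgb4 37720369 to 37722917. Further along lie the first exons of Pcdhgb5 (37731009 to 37733559), Pcdhgb6 (37742094 to 37744658), Pcdhgb7 (37751600 to 37754193) and Pcdhgb8 (37761801 to 37764299). Gamma A first exons lie between them, and the 3 shared exons begin 142.2 kb after the first exon of Pcdhgb1 and 60.7 kb after that of Pcdhgb8. Pcdhgb8 is annotated as a transcribed pseudogene in RefSeq and as a polymorphic pseudogene in GENCODE, while the others are protein-coding.

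The first exons are 2499 to 2607 bases long and the shared exons add 2116 to 2119 bases. For Pcdhgb6 the deposited gene length of 4684 bases equals the sum of both, so the shared exons were part of the counted gene. The lowest count of any of the 22 gamma genes was 30 to 46 per library, so at most that many reads of the shared exons can have been credited to every gene. Member counts were 36 to 219 per library, so this bound is not small beside the lowest of them. Levels are compared per kb of first exon, and the part of shared-exon reads in the counts was not tested.

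First exons of gamma B pairs were 65.5% to 78.1% identical (21 pairs, median 67.4%), against 48.3% to 55.0% between gamma B and gamma A genes. Stretches of 50 bases found word for word in transcripts of another gene made up 9.18% to 17.9% of the first exon in the members other than Pcdhgb7, so reads there could have been split or dropped. Pcdhgb1 and Pcdhgb2 shared most with each other, 412 such stretches. In Pcdhgb7 the share was 31.2%, of which most came from Gm26672, an antisense transcript that overlaps 771 bases of its first exon. The libraries do not mark strand, so reads of Pcdhgb7 and of this transcript cannot be told apart.

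The libraries held 18608881 to 19137666 counts in the null group and 19504879 to 23253367 in the wild type group. Wild type replicate 3 stood apart: 58.3% of its counts fell on the 6 records that exceed 1% of at least 1 library, against 5.84% to 11.7% of counts in the others, and its effective depth after TMM scaling was 10.1 M counts, against 21.3 to 25.8 M. Smchd1 itself fell to 27.9 to 31.1 CPM in null libraries, against 232 to 271 CPM in wild type libraries (edgeR adjusted p = 1.09e-06). The 12 neural stem cell markers summed to 6119 to 6326 CPM in null libraries and 6196 to 6648 CPM in wild type libraries. Among them Nes stood at 1184 ± 35.8 CPM in null and 1286 ± 70.2 CPM in wild type (SD, n = 3 each).

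The summed level of the gamma B genes differed by less than the spread between replicates. The 3 genes at the 5′ end of the row, Pcdhgb1, Pcdhgb2 and Pcdhgb4, lay 1.35 to 1.44 times as high in null as in wild type cells. The 4 genes that follow lay lower in null, with fold values of 0.904 for Pcdhgb5, 0.572 for Pcdhgb6, 0.708 for Pcdhgb7 and 0.794 for Pcdhgb8. None of the 7 passed the edgeR quasi-likelihood test at an adjusted p of 0.05 over all genes, where 0.577% of tested genes were called, 0.507% as higher and 0.0704% as lower. At an unadjusted p under 0.05 there were 5, against 18.6% of all tested genes. In these bulk samples fewer cells that use a gene and less RNA per cell cannot be told apart.

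**Figure D1:**
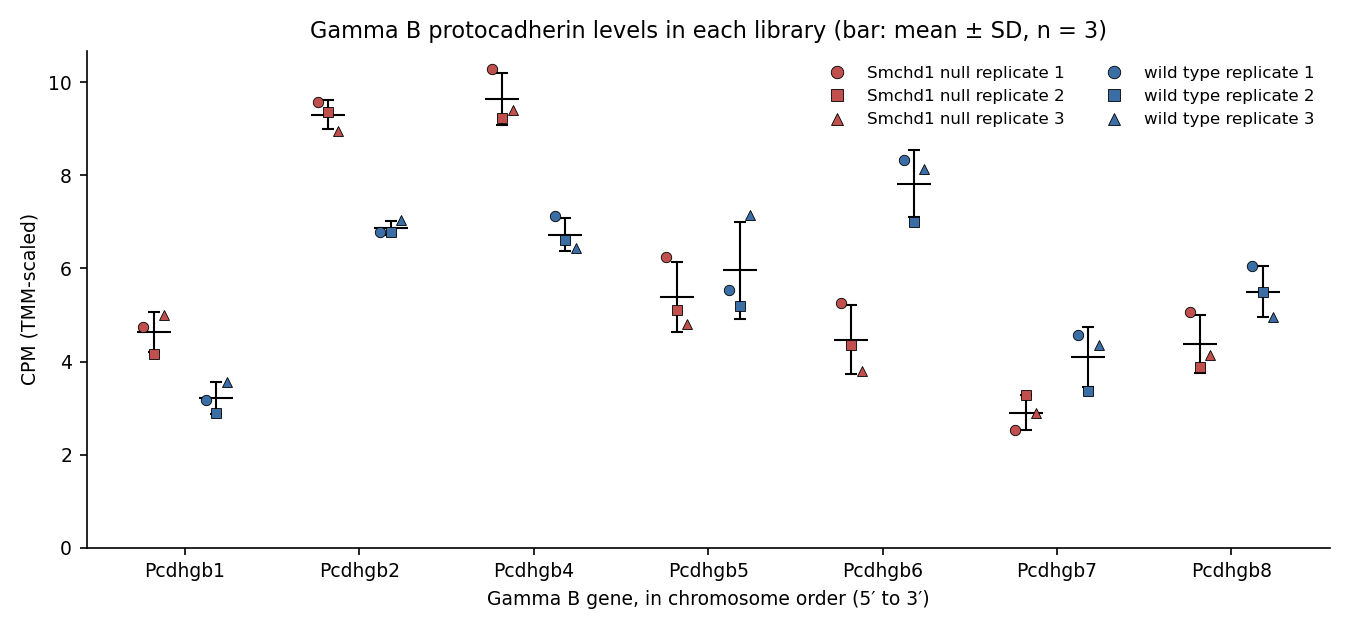
TMM-scaled CPM of each gamma B gene in every library, with null libraries in red to the left of wild type libraries in blue and bars for mean ± SD (n = 3). The null points lie above all wild type points for Pcdhgb1, Pcdhgb2 and Pcdhgb4 and below them for Pcdhgb6 and Pcdhgb7.

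Pcdhgb1, the most 5′ member, had 4.75, 4.17 and 4.99 CPM in null replicates 1 to 3, from 101, 89 and 112 counts, against 3.18, 2.90 and 3.57 CPM in wild type replicates 1 to 3, from 82, 68 and 36 counts. Every null library lay above every wild type library. The log2 fold change was 0.54 ± 0.16 (SE), with a 95% interval of 0.17 to 0.92 and an edgeR adjusted p of 0.176.

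Pcdhgb2 was among the most even members within a group. It had 9.58, 9.37 and 8.96 CPM in null libraries, against 6.78, 6.78 and 7.04 CPM in wild type libraries. The groups did not overlap, and wild type replicate 3, from 71 counts, lay close to the other two. Its log2 fold change was 0.44 ± 0.11 (95% interval 0.19 to 0.69, edgeR adjusted p = 0.136).

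Pcdhgb4 had 10.3, 9.23 and 9.41 CPM in null libraries, against 7.13, 6.61 and 6.45 CPM in wild type libraries. Again every null library was the higher one, from 197 to 219 counts in null and 65 to 184 in wild type. The log2 fold change was 0.51 ± 0.12 (95% interval 0.25 to 0.78, edgeR adjusted p = 0.117).

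Pcdhgb5, in the middle of the row, had 6.25, 5.11 and 4.81 CPM in null libraries, against 5.54, 5.20 and 7.14 CPM in wild type libraries. The groups overlapped, and the highest value of all was that of wild type replicate 3. The log2 fold change was -0.12 ± 0.17, and its 95% interval, -0.52 to 0.28, leaves room for a change in either direction (edgeR adjusted p = 0.704). Without wild type replicate 3 the value was -0.0012.

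Pcdhgb6 had the largest fold change of the 7, in either direction. It had 5.26, 4.36 and 3.79 CPM in null libraries, from 112, 93 and 85 counts, against 8.33, 6.99 and 8.14 CPM in wild type libraries, from 215, 164 and 82 counts. Every null library lay below every wild type library. The log2 fold change was -0.80 ± 0.16 (95% interval -1.17 to -0.43), with an edgeR adjusted p of 0.0886, and 137 of the 14207 tested genes had a smaller p.

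Pcdhgb7 was the lowest member in null cells. It had 2.54, 3.28 and 2.90 CPM in null libraries, against 4.57, 3.37 and 4.37 CPM in wild type libraries. The groups were separate by a narrow margin, between null replicate 2 and wild type replicate 2. Its log2 fold change was -0.49 ± 0.19 (95% interval -0.92 to -0.06, edgeR adjusted p = 0.235), and the part of Gm26672 in these counts was not tested.

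The pseudogene Pcdhgb8 had 5.07, 3.89 and 4.15 CPM in null libraries, against 6.05, 5.50 and 4.96 CPM in wild type libraries. Null replicate 1 lay just above wild type replicate 3, so the groups overlapped. Its log2 fold change was -0.35 ± 0.16 (95% interval -0.72 to 0.03, edgeR adjusted p = 0.291).

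Groups that did not overlap were thus seen for 3 members higher and 2 lower in null, against 22.0% of all tested genes in either direction, 11.4% higher and 10.6% lower. The median log2 fold change of the 7 was -0.12, against 0.0013 over all tested genes. With members on both sides of 0 this median describes none of them well.

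Summed over the members, the level was 43.7, 39.4 and 39.0 CPM in null libraries, against 41.6, 37.4 and 41.7 CPM in wild type libraries. The means were 40.7 ± 2.63 CPM in null and 40.2 ± 2.47 CPM in wild type (SD, n = 3 each), a ratio of 1.01. The sum therefore differed by less than the spread between replicates.

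The share of each member in the gamma B counts does not depend on how libraries are scaled to each other. Pcdhgb4 made up 23.7 ± 0.37% of these counts in null and 16.8 ± 1.16% in wild type, and Pcdhgb2 22.9 ± 0.94% in null and 17.1 ± 0.94% in wild type (SD, n = 3 each). Pcdhgb6, the member with the largest share in wild type cells, made up 10.9 ± 1.16% in null and 19.4 ± 0.66% in wild type. Pcdhgb1 took 11.4 ± 1.21% in null and 7.99 ± 0.51% in wild type. Pcdhgb5, Pcdhgb7 and Pcdhgb8 had shares of 13.2 ± 0.99%, 7.18 ± 1.28% and 10.7 ± 0.87% in null, against 14.8 ± 2.05%, 10.2 ± 1.03% and 13.7 ± 1.58% in wild type. Together the 3 members at the 5′ end held 56.3% to 59.9% of the gamma B counts in null libraries and 41.0% to 43.6% in wild type libraries, a grouping chosen after the values were seen. The shares were not tested. An exact permutation test of 3 libraries against 3 cannot go below a two-sided p of 0.1.

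**Figure D2:**
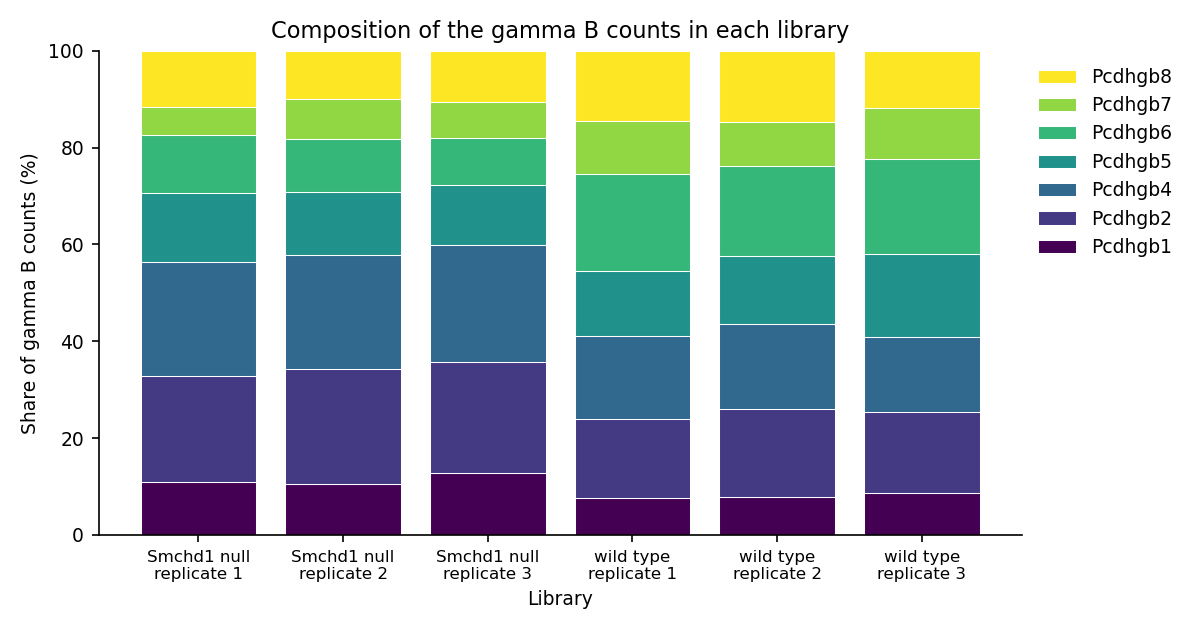
Share of each member in the summed gamma B counts, in percent, with 1 stacked bar per library, null libraries on the left and members stacked in chromosome order from the bottom. The 3 lowest segments, Pcdhgb1, Pcdhgb2 and Pcdhgb4, reach above 56% in each null library and stay below 44% in each wild type library.

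Ratios of 2 members within a library are likewise free of scaling. The ratio of Pcdhgb4 to Pcdhgb6 counts was 1.96, 2.12 and 2.48 in null libraries, against 0.856, 0.945 and 0.793 in wild type libraries. These members share few 50-base stretches, 3 in all. Pcdhgb4 was the more abundant of the pair in every null library and the less abundant in every wild type library, wild type replicate 3 included. Of the 3 ratios computed it differed most between the groups. Pcdhgb1 over Pcdhgb7 averaged 1.62 ± 0.31 in null and 0.791 ± 0.086 in wild type (SD, n = 3 each). Pcdhgb2 over Pcdhgb8 averaged 2.15 ± 0.26 in null and 1.26 ± 0.15 in wild type, so that Pcdhgb2 was the more abundant in every library of both groups. The pairs were chosen after their values were seen, and the ratios were not tested.

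Per kb of first exon, the order of levels in null cells was Pcdhgb4 (3.78 ± 0.22 CPM per kb), Pcdhgb2 (3.66 ± 0.12), Pcdhgb5 (2.11 ± 0.30), Pcdhgb1 (1.78 ± 0.16), Pcdhgb8 (1.75 ± 0.25), Pcdhgb6 (1.74 ± 0.29) and Pcdhgb7 (1.12 ± 0.14). In wild type cells it was Pcdhgb6 (3.05 ± 0.28 CPM per kb), Pcdhgb2 (2.70 ± 0.06), Pcdhgb4 (2.64 ± 0.14), Pcdhgb5 (2.34 ± 0.41), Pcdhgb8 (2.20 ± 0.22), Pcdhgb7 (1.58 ± 0.25) and Pcdhgb1 (1.23 ± 0.13). In null libraries the ranges of neighbours in this order were separate only between Pcdhgb2 and Pcdhgb5 and between Pcdhgb6 and Pcdhgb7. In wild type libraries they were separate only between Pcdhgb8 and Pcdhgb7. With the deposited gene lengths in place of first exons, Pcdhgb6 and Pcdhgb8 changed places in null, and Pcdhgb4 and Pcdhgb2 in wild type.

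All members were low next to Pcdhgc3, the most abundant gamma gene, which stood at 98.3 ± 6.29 CPM per kb of first exon in null and 107 ± 8.31 in wild type. Its log2 fold change was -0.13 ± 0.08 (edgeR adjusted p = 0.404). Gamma B genes together made up 10.2% to 11.2% of all gamma counts in null libraries and 10.1% to 10.6% in wild type libraries. With Pcdhgc3 left out of the gamma counts, their share was 32.3% to 33.8% in null and 33.4% to 36.9% in wild type libraries.

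Along the chromosome the sign of the gamma B fold changes split once, between Pcdhgb4 and Pcdhgb5. Members whose first exons end 142.2, 132.7 and 102.1 kb before the shared exons had positive values, and those at 91.5, 80.4, 70.8 and 60.7 kb had negative values. Within each side the sizes did not follow the order: Pcdhgb4 lay above Pcdhgb2, and the lowest value was that of Pcdhgb6, with Pcdhgb7 and Pcdhgb8 closer to 0. Spearman's rho between order and log2 fold change was -0.82 over the 7 genes, which share libraries and lie in 1 cluster, so it is a description only. Over the 12 interleaved gamma A genes it was -0.34.

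Gamma A genes in the same stretch did not follow their gamma B neighbours throughout. Pcdhga3, Pcdhga5 and Pcdhga7, near the members with positive values, had log2 fold changes of 0.35 ± 0.13, 0.41 ± 0.18 and 0.37 ± 0.15. Pcdhga4 and Pcdhga8, which also flank such members, had 0.18 ± 0.18 and -0.25 ± 0.22. Next to Pcdhgb6 lie Pcdhga9 (0.09 ± 0.16) and Pcdhga10 (0.16 ± 0.21), whose 95% intervals reach both sides of 0. Pcdhga11, between Pcdhgb7 and Pcdhgb8, had 14.4 ± 0.80 CPM in null and 10.8 ± 0.77 CPM in wild type, a value of 0.42 ± 0.10 opposite in sign to both neighbours. Pcdhga12, after Pcdhgb8, had 1.67 ± 0.07 CPM in null and 2.87 ± 0.16 CPM in wild type (-0.77 ± 0.18). None of these passed the edgeR test, with adjusted p values from 0.12 to 0.775, and the differences between neighbours were not tested.

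**Figure D3:**
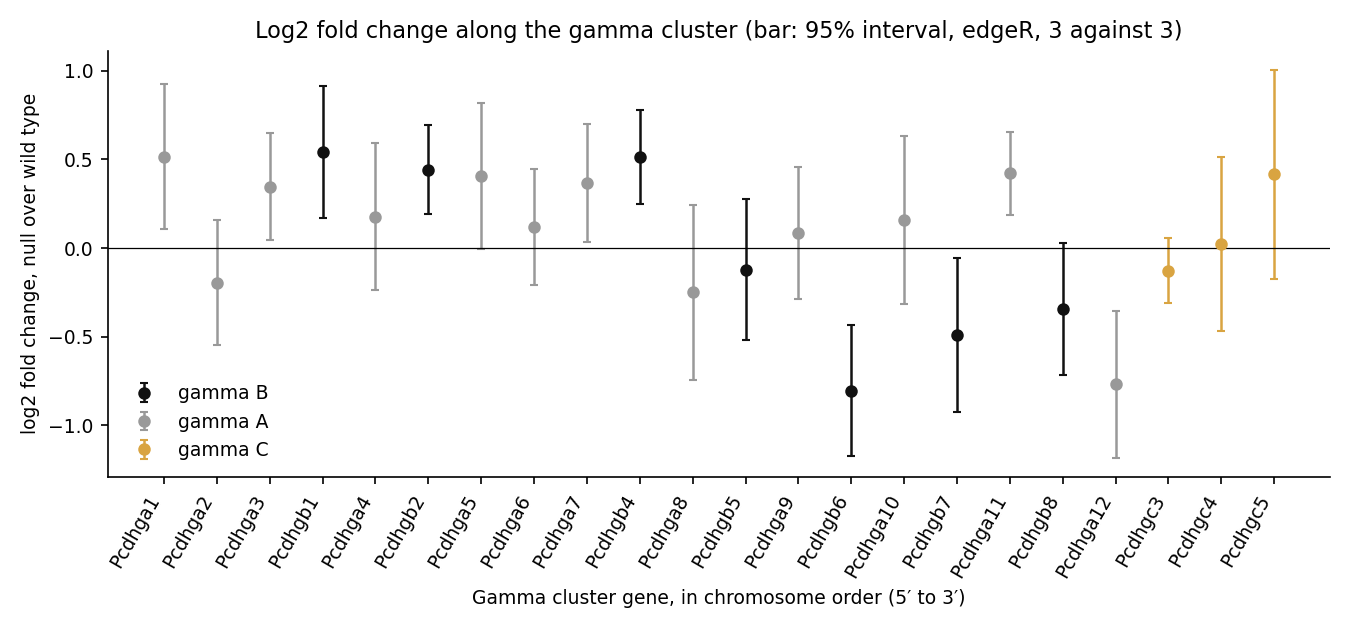
Log2 fold change, null over wild type, of the 22 gamma genes in chromosome order, with 95% intervals from the edgeR fit and gamma B genes in black. The gamma B points are positive up to Pcdhgb4 and negative from Pcdhgb5 on, while Pcdhga11 stands above 0 between Pcdhgb7 and Pcdhgb8. The intervals of Pcdhgb5 and Pcdhgb8 reach both sides of 0.

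Which members were called differed with the treatment of wild type replicate 3 and, for Pcdhgb6, also with the tool and the filter. Without that library, edgeR called Pcdhgb1, Pcdhgb2 and Pcdhgb4 higher (adjusted p of 0.00695, 0.00482 and 0.0035) and Pcdhgb6 and Pcdhgb8 lower (0.000631 and 0.0404), in a fit that called 19.7% of all tested genes higher and 19.4% lower. The test of limma-voom with sample quality weights, which gave that library a weight of 0.215 against 1.10 to 1.70 for the others, called the same 5, with 19.0% of all genes called higher and 17.4% lower. With all libraries at full weight, DESeq2 called only Pcdhgb6 (adjusted p = 0.0096, with 1.56% of genes called lower), edgeR with no filter on low counts also called only Pcdhgb6 (adjusted p = 0.0237, with 0.28% of genes called lower), and limma-voom without weights called 0 of the 7 and 0.894% of all genes. The 5 calls made without wild type replicate 3, or with it down-weighted, thus came where a large part of all tested genes was called.

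The direction of each member did not turn under any of the 19 alternatives. Pcdhgb6 ranged from -0.94 to -0.70 on the log2 scale, Pcdhgb4 from 0.46 to 0.58 and Pcdhgb2 from 0.40 to 0.47. Pcdhgb1 ranged from 0.38 to 0.61, Pcdhgb7 from -0.63 to -0.39 and Pcdhgb8 from -0.46 to -0.18. The range of Pcdhgb5 was -0.41 to -0.0012, so its kept sign says little. Most of these alternatives share the same libraries, so their number does not measure stability. The sample names number the null libraries and wild type replicate 3 from 11 to 14, while wild type replicates 1 and 2 carry numbers of another range. Among the libraries numbered 11 to 14 alone, Pcdhgb6 passed (-0.87, adjusted p = 0.0262, with 1.69% of genes called lower), as the only member. In that comparison Pcdhgb5, Pcdhgb7 and Pcdhgb4 had larger values, at -0.41, -0.59 and 0.58, against -0.12, -0.49 and 0.51 over all libraries. Smaller in size were those of Pcdhgb1, Pcdhgb2 and Pcdhgb8, at 0.38, 0.40 and -0.19, against 0.54, 0.44 and -0.35. The comparison rests on a single wild type library, whose spread is assumed to be like that of the null libraries.

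**Figure D4:**
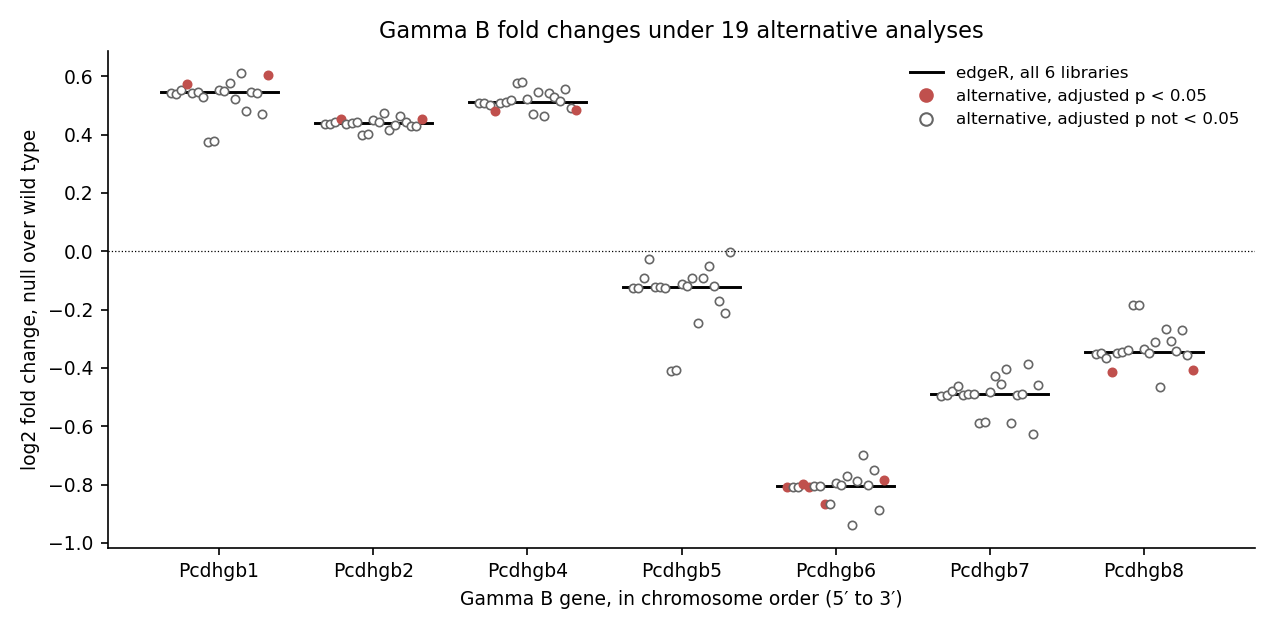
Log2 fold change, null over wild type, of each gamma B gene under the 19 alternatives (circles, red where the adjusted p was under 0.05) and in the edgeR fit to all 6 libraries (black lines). Pcdhgb5 comes closest to 0, and Pcdhgb6 has the most red circles, 5 of 19.

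Other clustered protocadherins gave calls in the same fit. Of 13 tested alpha genes 9 rose and of 22 beta genes 17 rose, with medians of 4.43 and 1.97 on the log2 scale, and none fell in this fit. Over all tested genes 0.507% were called higher and 0.0704% lower. With a term for the sample names 1 alpha gene was called lower, beside 7 called higher. Over all tested genes, the fit with that term called 77 higher and 109 lower. Examples are Pcdha6, at 4.68 ± 0.96 CPM in null and 0.145 ± 0.089 CPM in wild type, Pcdha8 (log2 fold change 4.43 ± 0.36), Pcdhb22 (1.53 ± 0.09) and Pcdhb4 (3.38 ± 0.22), with adjusted p values from 0.00029 to 0.00106. All gamma B values were smaller than 1 on this scale, in either direction. Of 12 gamma A and 3 gamma C genes, 5 and 0 had an unadjusted edgeR p under 0.05, against 18.6% of all tested genes. None of these gamma A and C genes was called, and their medians were 0.17 and 0.02. DESeq2 and limma-voom called none of them either. Without wild type replicate 3, edgeR called 5 gamma A genes higher and 1 lower, and 1 gamma C gene higher. Shares over all tested genes in that fit were 19.7% higher and 19.4% lower. Leaving out any other library gave 5 to 8 alpha and 8 to 11 beta calls.

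Among 12 regulators of protocadherin promoters, Smchd1 was the only edgeR call. At an unadjusted p under 0.05 there were 3, Smchd1 among them, all lower in null, against 18.6% of all tested genes in either direction. DESeq2 called 2 regulators lower, where it called 1.56% of all genes lower. Smc1a, a cohesin subunit, had 320 ± 8.18 CPM in null and 377 ± 23.5 CPM in wild type (-0.24 ± 0.07, adjusted p = 0.172). Of 6 genes for the enzymes that cleave gamma protocadherin proteins none was called, and the smallest p values were those of Psenen (-0.34 ± 0.14) and Ncstn (-0.11 ± 0.07), subunits of gamma-secretase. Of 7 tested genes for partner proteins none was called. Nlgn1, a synaptic adhesion partner, had 46.6 ± 1.28 CPM in null and 36.5 ± 6.80 CPM in wild type (0.37 ± 0.12, adjusted p = 0.201), and Ptk2, the focal adhesion kinase, stood at -0.25 ± 0.11. Genes that flank the cluster gave 0 calls among 6 tested. Taf7, upstream of the gamma genes, had 17.7 ± 0.70 CPM in null and 20.9 ± 2.40 CPM in wild type (-0.24 ± 0.10), and Slc25a2 had 0.354 ± 0.191 CPM in null and 0.704 ± 0.378 CPM in wild type. At an unadjusted p under 0.05 edgeR counted 1 enzyme, 1 partner and 2 flank genes, and neither DESeq2 nor limma-voom called any gene of these 3 lists. Without wild type replicate 3, edgeR called 7 regulators and 1 enzyme gene lower, 2 partner genes higher and 3 lower, and 1 flank gene higher and 3 lower. Over all tested genes that fit called 19.7% higher and 19.4% lower.

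Markers of other cell types were read beside these values. In the neuron list 1 of 11 tested genes rose, Nefl, a neurofilament gene (1.89 ± 0.28, adjusted p = 0.0228), with Nefm at 0.71 ± 0.17. The summed level of that list was 1109 to 1138 CPM in null libraries and 1196 to 1245 CPM in wild type libraries. No call was made among 12 neural stem cell, 10 astrocyte, 11 oligodendrocyte lineage, 1 microglia, 1 vessel and 3 fibroblast genes tested. At an unadjusted p under 0.05 edgeR counted 1 gene in each of the first 3 of these lists and 0 in the others. In the neuron list it counted 4 of the 11 tested genes, against 18.6% of all tested genes. In the lists other than neuron, DESeq2 called 1 neural stem cell and 1 astrocyte gene, and limma-voom none. Both DESeq2 calls were lower in null, where DESeq2 called 1.56% of all genes lower. Examples are Hes1 (-0.39 ± 0.10), Gja1 (-0.68 ± 0.18), Gfap (1.16 ± 0.82), Nkx2-2 (0.60 ± 0.21), Cldn11 (1.16 ± 0.54), P2ry12 (-0.21 ± 0.23), Kdr (-0.24 ± 0.29), Col1a1 (1.14 ± 0.53) and Col3a1 (0.80 ± 0.51). Microglia, vessel and fibroblast markers summed to at most 3.67 CPM per list in any library, and Tmem119, C1qa, C1qb and Cdh5 had 0 counts in every library. Astrocyte markers summed to 1383 to 1474 CPM in null and 1248 to 1692 CPM in wild type libraries, and oligodendrocyte lineage markers to 1496 to 1588 CPM in null and 1172 to 1691 CPM in wild type libraries. The Nefl call did not hold when wild type replicate 1 or 2, or null replicate 1 or 3, was left out, nor with the replicate number as a block or a term for the sample names. Without wild type replicate 3, edgeR called 6 neuron genes higher and 4 lower, 2 stem cell genes higher and 3 lower, 7 astrocyte genes higher and 1 lower, 10 oligodendrocyte lineage genes higher and 2 fibroblast genes higher. That fit called 19.7% of all tested genes higher and 19.4% lower. Under the term for the sample names the oligodendrocyte lineage calls went the other way, with 1 gene lower and 0 higher. Over all tested genes, the fit with that term called 77 higher and 109 lower. The part of the neuron, astrocyte and oligodendrocyte lineage genes in the gamma B values was not tested.

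The genes most like each member were taken by Pearson's r of log2 CPM over the 6 libraries, out of all tested genes. Pcdhgb2 was most like Mlkl (r = 0.998), Pcdhgb4 most like Itgb7 (0.997), Pcdhgb1 most like Ly75 (0.995) and Pcdhgb6 most like Cops3 (0.995). Pcdhgb5 was most like Polr3c (0.995), Pcdhgb7 most like Rnf185 (0.991) and Pcdhgb8 most like Gm6155 (0.995). With so many genes and 6 libraries in 2 groups, values this high describe the ordering of the libraries and nothing more.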

How the data were processed

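The deposited values are raw read counts per Entrez gene with a gene length. Per the labels' protocols, 1 µg of total RNA per library went into the TruSeq RNA v2 kit. Per the submitters' processing notes, featureCounts, CASAVA 1.8.2, limma 3.22.0 and edgeR 3.8.2 were used, with build mm10. Not given in the sources used here are the aligner, the annotation and the handling of reads that match several genes. Symbols came from a RefSeq table of GRCm38.p6, which matched 93.0% of IDs, and gene models from GENCODE M21.

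Counts were filtered with filterByExpr, scaled by TMM and tested with edgeR 4.0.16 in R 4.3.3 (robust quasi-likelihood F-test, two-sided, genotype only, Benjamini-Hochberg over 14207 genes, threshold 0.05). The SE is the log2 fold change divided by the root of F. CPM are counts per M TMM-scaled counts. Member counts were 36 to 219 per library, which limits precision, and intervals cover the spread between libraries as fitted. Alternatives used DESeq2 1.42.0, limma 3.58.1 and those listed in the closing section. Named genes were Smchd1, the members, gamma A or C neighbours of members called under any alternative, the 2 genes with the smallest p of each list, and the 2 genes most like each member, of which the first is printed. Other names were chosen after their values were seen. The members, lists and rules were chosen with earlier results of these data known.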

Additional observations from a re-analysis of the deposited data

How the results depend on the processing

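The 7 members kept their sign under all 19 alternatives, though the value of Pcdhgb5 came as close as -0.0012 to no change. The count of members called higher was 3 with quality weights and 0 to 3 with a library left out. The count called lower was 1 with DESeq2, 2 with quality weights, 1 with no filter, 1 among the libraries numbered 11 to 14 and 0 to 2 with a library left out. The upper ends came without wild type replicate 3, where genotype and the ranges of the sample names coincide, and each other omission gave 0. Over all genes 72 rose and 10 fell. That became 180 and 221 with DESeq2, 2700 and 2468 with quality weights, 163 and 59 with no filter, and 126 and 250 among libraries 11 to 14. It became 104 and 23 with limma-voom, 77 and 109 with a term for the sample names, and 29 to 2857 and 1 to 2819 with a library left out. The cause was not tested.

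With the replicate number as a block 48 rose and 6 fell, and no member was called. Nothing in the labels pairs equal numbers, and the correlations of equally numbered libraries' deviations were -0.0059, 0.0275 and -0.0411. Not every null library correlated best with its own number.

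The log2 ratio of summed gamma B CPM ranged from -0.04 to 0.05. Between 36 and 82 counts per member in wild type replicate 3 limit what that library can show.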
